A study of Mus musculus with 96 samples.

Results

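The REV-ERB and ROR nuclear receptor genes Nr1d1 (REV-ERBα), Nr1d2 (REV-ERBβ), Rora (RORα) and Rorb (RORβ) were followed over circadian time in 4 mouse tissues, with and without acute sleep deprivation. The members are the 4 rows of the gene count table whose Ensembl identifiers map to these symbols, out of 54833 features in all, and the rule that names them uses symbols only. All mice were wild-type C57BL/6 males of 6 to 8 weeks. Control (CON) mice were left undisturbed, and sleep-deprived (SD) mice were made to walk in a slowly rotating drum for 10 h of their resting phase, with food and water at hand. Forebrain, cerebellum, liver and kidney were then taken at circadian time (CT) 4, 8, 12, 16, 20 and 24 h, with 2 libraries per tissue, condition and time, or 96 libraries in 48 groups. The labels tag CT4 to CT24 as DD0 to DD20. Bulk tissue was sequenced, so fewer cells that use a gene and less RNA per cell cannot be told apart.

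REV-ERB and ROR proteins compete for the same DNA element, the ROR response element (RORE), where the RORs recruit coactivators and the heme-binding REV-ERBs recruit the NCoR-HDAC3 corepressor. This forms the stabilizing loop of the mammalian clock: CLOCK and BMAL1 (encoded by Arntl) drive the REV-ERB genes through E-boxes, and the REV-ERBs in turn repress Arntl, Clock, Npas2, Cry1 and Nfil3. Outside the clock, the REV-ERBs restrain lipid and bile acid genes in liver, RORα is required for Purkinje cell development in the cerebellum, and RORβ marks layer 4 neurons of the cortex.

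In GRCm38, Nr1d1 (ENSMUSG00000020889) lies at chr11:98767932-98775333 on the minus strand, Nr1d2 (ENSMUSG00000021775) at chr14:18204054-18239127 on the minus strand, Rora (ENSMUSG00000032238) at chr9:68653786-69388246 on the plus strand and Rorb (ENSMUSG00000036192) at chr19:18930605-19111196 on the minus strand. Their merged exons cover 3077, 5409, 13071 and 11076 bases in 8, 8, 18 and 12 blocks. Counts were assigned by strand. The 3′ end of Nr1d1 shares 263 exon bases with Thra, a thyroid hormone receptor gene on the other strand, and Rora shares 82 exon bases with the antisense gene Gm15511.

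The promoter windows of both REV-ERB genes and of their target Arntl are shown because these genes form the repressive arm of the clock loop and were followed over time. Each window runs from 250 bases before to 50 after a RefSeq transcription start (RefSeq sequences, GRCm38.p6), is printed 5′ to 3′ on the gene's strand, and has motif matches in capitals. The motifs searched on both strands were the E-box CACGTG, the E′-box CACGTT, the D-box TTANNTAA, and the RORE core sites AGGTCA and GGGTCA. They occurred in 7.15%, 4.68%, 6.0%, 16.3% and 13.7% of 32851 promoter windows of this length. The Nr1d1 window is chr11:98775328-98775627, the Nr1d2 window chr14:18239057-18239356 and the Arntl window chr7:113207261-113207560.
Nr1d1: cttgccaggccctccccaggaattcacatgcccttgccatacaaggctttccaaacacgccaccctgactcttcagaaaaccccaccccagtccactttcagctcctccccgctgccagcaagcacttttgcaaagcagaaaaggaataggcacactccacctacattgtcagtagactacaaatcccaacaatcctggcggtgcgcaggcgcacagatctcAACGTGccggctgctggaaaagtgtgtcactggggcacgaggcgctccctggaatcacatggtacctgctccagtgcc
Nr1d2: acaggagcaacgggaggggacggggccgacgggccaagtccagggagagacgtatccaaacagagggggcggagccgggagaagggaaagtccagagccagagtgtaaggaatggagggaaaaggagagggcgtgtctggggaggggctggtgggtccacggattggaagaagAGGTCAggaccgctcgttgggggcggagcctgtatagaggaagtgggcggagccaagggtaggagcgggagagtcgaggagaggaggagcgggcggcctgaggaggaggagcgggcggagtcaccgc
Arntl: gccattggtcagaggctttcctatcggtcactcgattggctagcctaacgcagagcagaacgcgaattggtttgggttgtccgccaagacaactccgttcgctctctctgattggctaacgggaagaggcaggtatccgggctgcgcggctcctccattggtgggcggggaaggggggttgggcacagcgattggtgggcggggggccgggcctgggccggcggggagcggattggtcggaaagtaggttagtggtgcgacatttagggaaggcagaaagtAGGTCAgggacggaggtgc
The Nr1d1 window held an E′-box, read on the other strand, starting 28 bases before the start. The Nr1d2 window held the core site AGGTCA, 77 bases before the start, and the Arntl window held AGGTCA at position 32 after its start. The other Arntl window and the Rora windows held none of the motifs. The Cry1 window held an E-box 60 bases and an E′-box 79 bases before the start, and 1 Rorb window (chr19:19001068-19001367) held a D-box at position -95 and an E′-box at position -234.

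Depth was 24.8 to 58.5 M assigned counts per library, and no pair of libraries was identical. The cerebellum CON CT8 replicate 1 stood apart from all others, with a median absolute deviation of 0.510 (log2) from the cerebellum median over 17191 genes, against at most 0.136 in the other cerebellum libraries. Labelled tissues expressed their own markers, except that Neurod1, 1 of 5 cerebellar granule cell markers, had a mean below 1 CPM (a gene's counts in each 1000000 counts of its library). Choroid plexus markers varied between cerebellum libraries (summed level 4.16 to 1893 CPM in CON and 5.82 to 3100 CPM in SD), and in liver the 4 leukocyte markers summed to 161 to 348 CPM in CON but 84.2 to 148 CPM in SD. In kidney, the time tags of 20 of 24 libraries, and the treatment tags of some of these, went against the titles. Titles were used throughout, and the 4 remaining libraries were too few to repeat any kidney result. Every kidney time course and every kidney comparison of SD with CON therefore rests on the titles. Whether the titles or the tags are right was not tested.

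The tissues differed more in ROR than in REV-ERB levels. Rora was highest in cerebellum, and per length its median was above that of every other member in cerebellum and forebrain but below that of Nr1d2 in liver and kidney. Per length, as CPM per kb of exon (RPKM), its median over the 12 control libraries was 237 in cerebellum, 53.0 in forebrain, 17.6 in kidney and 15.6 in liver. In the edgeR quasi-likelihood test with Benjamini-Hochberg adjustment over all genes, which called 80.8% of gene and tissue-pair tests, cerebellar Rora exceeded forebrain 4.09-fold (adjusted p = 2.54e-22) and forebrain exceeded liver 2.18-fold. Liver and kidney are neighbours whose order depended on the scaling: liver was 1.30-fold higher with TMM factors (adjusted p = 0.000611), whereas with library sizes alone kidney was higher by 0.13 (log2).

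Rorb was a forebrain gene in these samples. Its level was lowest at 79.9, median 132 and highest at 219 CPM in forebrain controls, and 24.5, 26.7 and 31.3 CPM in cerebellum. Kidney controls held only 1.09 to 2.06 CPM, and in liver 9 of 12 control libraries had no count and the highest reached 0.0617 CPM. Forebrain exceeded cerebellum 5.53-fold (adjusted p = 4.50e-23) and kidney 93.6-fold. Liver Rorb failed the filter on low counts in the tissue fits, which left 15 member-by-tissue combinations.

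For Nr1d1 the difference in mean level between forebrain and cerebellum did not pass (1.46-fold, adjusted p = 0.0704), and forebrain exceeded liver 4.57-fold and kidney 3.60-fold. Nr1d2 was highest in cerebellum, 1.87-fold above forebrain (adjusted p = 0.000240) and 2.46-fold above liver, while the differences among forebrain, liver and kidney did not pass (adjusted p = 0.0781 to 1), though with RLE size factors both organs were below forebrain (adjusted p = 0.0406 for liver and 0.0228 for kidney), and with library sizes alone liver was below forebrain by 0.96 (log2, adjusted p = 0.000281). Median RPKM of Nr1d2 was 65.9 in cerebellum, 31.7 in forebrain, 23.1 in kidney and 18.7 in liver, and that of Nr1d1 was 29.1, 38.8, 13.9 and 4.87.

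**Figure D1:**
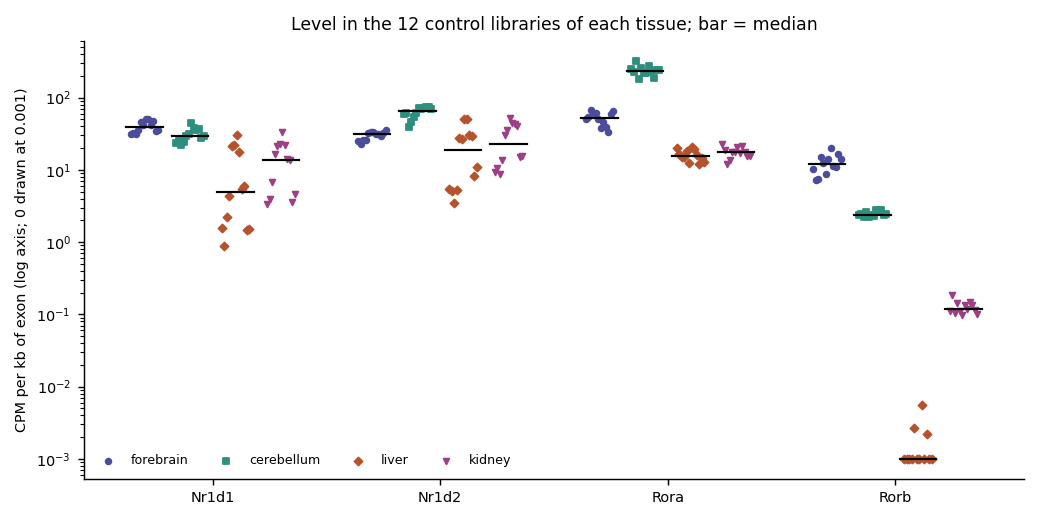
Level of each member in the 12 control libraries of each tissue, as CPM per kb of exon on a log axis. Each point is a library, bars are medians and values under 0.001, as in most liver libraries for Rorb, are drawn at 0.001; cerebellar Rora (median 237) stands above every other gene and tissue.

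In liver and kidney the REV-ERB genes swung with circadian time by far more than in the brain tissues. Liver Nr1d1 was at 4.80 and 2.76 CPM at CT4, 65.1 and 68.8 CPM at CT12, 93.1 and 53.7 CPM at CT16 and 4.46 and 4.63 CPM at CT24 in controls. Kidney Nr1d1 was at 10.2 and 12.1 CPM at CT4, 101 and 69.1 CPM at CT16 and 11.1 and 14.3 CPM at CT24. The lowest CT12 or CT16 library in either organ lay above every library of CT4 and CT24.

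A 24 h cosine was fitted to each gene within each condition. Its amplitude is the distance from the fitted mean to the peak on the log2 scale. Liver Nr1d1 had an amplitude of 2.30 ± 0.17 (SE), a 24.2-fold change from trough to peak, with the peak at 14.5 ± 0.27 h (adjusted p = 4.67e-08, edgeR). In SD liver the amplitude was 2.61 ± 0.17, or 37.4-fold, at 14.8 ± 0.24 h (adjusted p = 8.64e-09). Kidney Nr1d1 changed 8.26-fold in CON with a peak at 14.4 h and 6.10-fold in SD with a peak at 13.9 h (adjusted p = 1.19e-07 and 9.14e-07). These tests called 11.7% and 13.8% of all liver genes and 4.51% and 4.74% of all kidney genes in CON and SD. Among the called genes the liver Nr1d1 amplitude ranked 23 of 2307 in CON and 28 of 2721 in SD, and that in kidney 25 of 971 and 21 of 1020.

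Nr1d2 followed Nr1d1 with a delay. In control liver it was at 29.1 and 27.5 CPM at CT4, 149 and 144 CPM at CT12, 277 and 276 CPM at CT16 and 164 and 157 CPM at CT20, so that the CT20 libraries lay above the CT12 libraries, the opposite of Nr1d1. Its peak was at 16.8 ± 0.28 h in CON and 17.4 ± 0.29 h in SD, with an 11.1-fold and a 10.4-fold change (adjusted p = 5.83e-08 and 1.33e-07). In kidney it peaked at 16.7 ± 0.21 h in CON and 16.95 ± 0.29 h in SD, with a 5.80-fold and a 3.57-fold change (adjusted p = 3.93e-10 and 2.14e-07). The fitted Nr1d2 peak came 2.27 to 3.01 h after that of Nr1d1 in these organs and conditions. Thra, on the strand opposite Nr1d1, had smaller amplitudes of 0.48 and 0.54 in CON and SD liver and 0.34 and 0.36 in kidney, all of them called (adjusted p at most 0.000768).

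The rank-based JTK test, with 6 reference phases, was stricter at 2 libraries per time. It called 0.984% of liver genes in CON and 5.25% in SD, and 0.246% and 0.251% of kidney genes. Liver Nr1d1 and Nr1d2 passed in SD (adjusted p = 0.0142 and 0.0213) and kidney Nr1d2 passed in SD (adjusted p = 0.0460). In CON the adjusted p was 0.0664 and 0.0524 in liver and 0.117 and 0.0631 in kidney, and SD kidney Nr1d1 had 0.0876. On TMM-scaled CPM kidney Nr1d2 passed in CON (adjusted p = 0.0444) and not in SD (adjusted p = 0.0857). Leaving out single SD libraries removed the call of liver Nr1d1 in 2 of 12 cases, of liver Nr1d2 in 6 of 12 and of kidney Nr1d2 in 12 of 12.

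**Figure D2:**
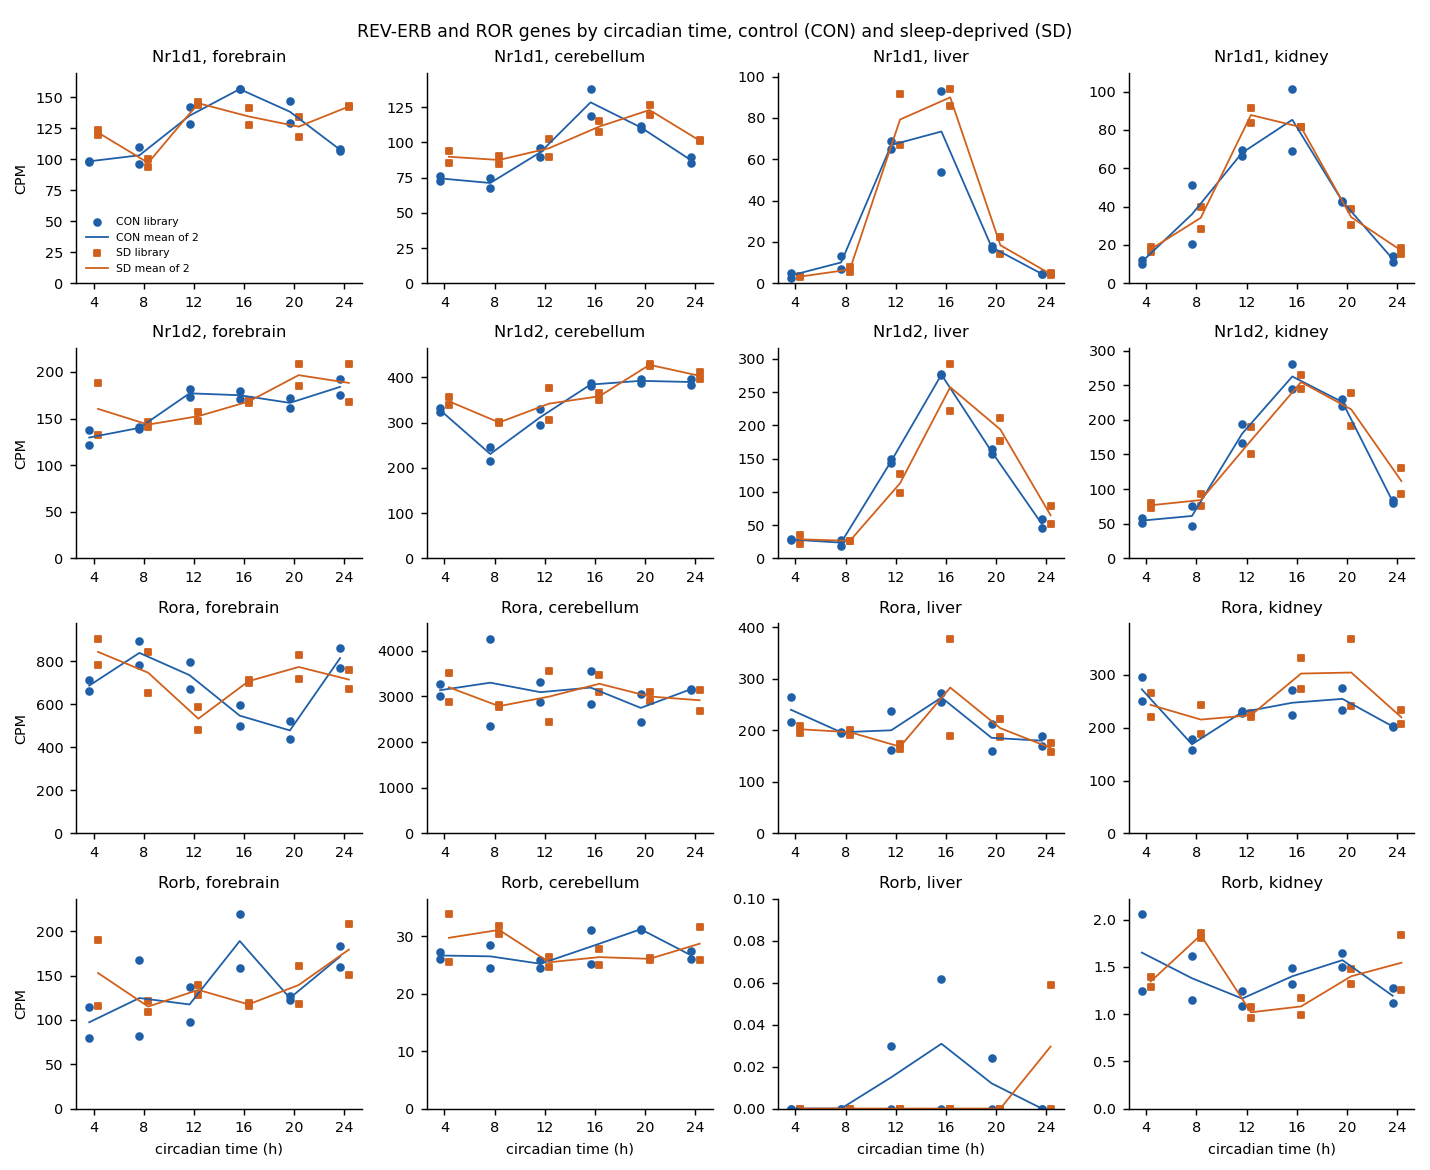
CPM of each member (rows) against circadian time in h for each tissue (columns), with 1 point per library, lines through the means of 2 libraries, circles for CON and squares for SD. Nr1d1 and Nr1d2 rise and fall in liver and kidney (Nr1d1 in control liver from 2.76 to 93.1 CPM), while Rora and Rorb show no such course; each panel has its own axis from 0.

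In the brain tissues 4 of the 8 cosine tests of the REV-ERB genes passed, 3 of them in controls. Forebrain Nr1d1 was at 98.2 and 98.7 CPM at CT4 and 157 and 157 CPM at CT16 in controls. Cerebellar Nr1d1 was at 67.6 and 74.7 CPM at CT8 and 138 and 119 CPM at CT16. In both tissues the CT16 controls were the highest, with no overlap with CT4, CT8 or CT24.

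The cosine fit called 1.59% and 0.039% of forebrain genes in CON and SD, and 0.257% and 0.018% of cerebellar genes. Forebrain Nr1d1 passed in CON, 1.68-fold from trough to peak with the peak at 16.5 ± 0.63 h (adjusted p = 0.0128, and 0.0519 without CON CT16 replicate 1), and had an adjusted p of 0.596 in SD (1.24-fold). Cerebellar Nr1d1 passed in both conditions, with 1.71-fold at 17.4 ± 0.35 h in CON (adjusted p = 2.80e-05) and 1.42-fold at 19.0 ± 0.53 h in SD (adjusted p = 0.0126). The SD call in cerebellum was lost without any of 4 libraries, SD CT8 replicate 2, SD CT16 replicate 1 and both of SD CT20, as well as with library sizes alone.

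Cerebellar Nr1d2 passed in CON, with 1.55-fold at 20.4 ± 0.59 h (adjusted p = 0.0164), and not in SD, with 1.39-fold at 20.9 h (adjusted p = 0.228, but 0.000393 with DESeq2). The edgeR fit takes the libraries of both conditions together. It called cerebellar Nr1d2 in SD without CON CT8 replicate 1, the library that stood apart (amplitude 0.24). The same held without SD CT12 replicate 2 (amplitude 0.29). In forebrain Nr1d2 changed 1.37-fold in both conditions and did not pass (adjusted p = 0.0860 and 0.329, with 0.0457 in CON by DESeq2). JTK called 0% of genes in forebrain and in cerebellum in either condition, with 1564 to 2844 genes at an unadjusted p under 0.05. Its unadjusted p was below 0.05 for 6 of the 8 REV-ERB tests in brain, and lowest at 0.000375 for forebrain Nr1d1 and cerebellar Nr1d2 in CON.

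The difference in rhythm between tissues was tested directly in the 48 control libraries, where 3.58% of gene and tissue-pair tests passed. The size of a difference is the distance between the fitted cosine and sine coefficients of the 2 tissues (log2). For Nr1d1 it was 1.96 between liver and forebrain, 2.03 between liver and cerebellum, 1.199 between kidney and forebrain, 1.28 between kidney and cerebellum and 0.78 between kidney and liver, and each of these passed (adjusted p = 5.70e-11 to 0.0155). For Nr1d2 the 4 distances between an organ and a brain tissue, 1.02 to 1.54, also passed, whereas that between kidney and liver, 0.47, did not (adjusted p = 0.0964; 0.0362 with library sizes alone and 0.0230 with a replicate block). The difference between forebrain and cerebellum did not pass for either gene (adjusted p = 0.969 for Nr1d1 and 0.680 for Nr1d2).

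**Figure D3:**
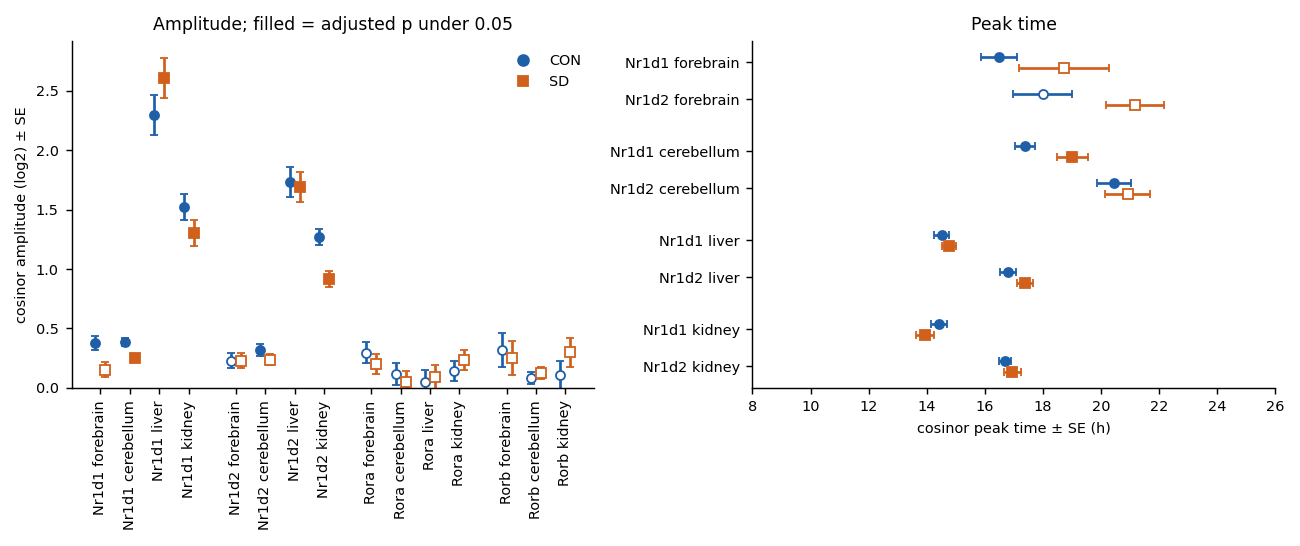
Left, cosine amplitude (log2, fitted mean to peak) ± SE for each member and tissue; right, peak time ± SE in h for Nr1d1 and Nr1d2. Circles are CON, squares are SD and filled symbols have an adjusted p under 0.05. The largest amplitude is 2.61 for liver Nr1d1 in SD. The fitted Nr1d2 peak is later than that of Nr1d1 in every tissue, and the order of peaks was not tested. In forebrain, and in cerebellum under SD, the Nr1d2 rhythm itself was not called by edgeR.

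No rhythm was called for Rora or Rorb in any tissue or condition, by the cosine fit or by JTK, except that kidney Rora passed in SD without the filter on low counts (adjusted p = 0.0179). Cosine amplitudes of Rora lay between 0.04 and 0.30, and those of Rorb between 0.08 and 0.32, while the median over all genes tested was 0.12 to 0.23. Unadjusted p was lowest for forebrain Rora in CON (0.0115, adjusted p = 0.120, amplitude 0.30, peak at 6.15 ± 1.11 h). Forebrain Rora was at 893 and 783 CPM at CT8, 498 and 595 CPM at CT16 and 520 and 436 CPM at CT20 in controls, so the CT8 pair lay above the CT16 and CT20 pairs. Cerebellar Rora differed within a time point, with 2830 and 3554 CPM at CT16 and 4255 and 2342 CPM at CT8 in controls, the value of 4255 CPM being that of the library that stood apart.

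The 5 RORE targets named in the clock loop peaked 6.92 to 11.99 h away from Nr1d1 in liver and kidney. All 5 passed the cosine test in liver and in kidney in both conditions, whereas 1 passed in forebrain CON and none in forebrain SD, and 1 passed in cerebellum in each. None of the 5 passed the test of a change in rhythm under SD in any tissue. Arntl peaked at 5.24 h in control liver (10.7-fold) and 5.19 h in control kidney (14.9-fold), 9.28 and 9.23 h before Nr1d1. Npas2, which can replace CLOCK as the partner of BMAL1, had the largest swing, 96.4-fold at 7.31 h in liver and 28.6-fold at 6.06 h in kidney. Cry1, a repressor of CLOCK and BMAL1, was nearly opposite to Nr1d1, with its peak 11.7 h after that of Nr1d1 in control liver and 10.7 h after in control kidney. Nfil3, which encodes a repressor at D-boxes, peaked at 4.12 h (4.55-fold) in liver and 3.96 h (5.73-fold) in kidney, and Clock at 5.04 h (2.07-fold) and 5.02 h (1.42-fold). In cerebellum Arntl passed at 8.72 h in CON (2.32-fold) and 11.1 h in SD (1.86-fold).

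Averaged over the 6 times, no member passed the test of a change in level under SD. The edgeR test called 0 of 15 member-by-tissue combinations, with 3 at an unadjusted p under 0.05, and DESeq2 also called 0. Across all genes the same test called 0.0303% in forebrain, 0% in cerebellum (757 genes at unadjusted p under 0.05, and 1 call by DESeq2), 18.2% in liver (9.42% higher and 8.8% lower in SD) and 2.3% in kidney (0.181% higher and 2.12% lower). The split in liver depends on the scaling: 1857 genes were higher and 1735 lower with TMM, against 358 and 3763 with library sizes alone, which moves the median of all genes from 0.01 to -0.13 (log2). Estimates for the members were above 0 in 13 of 15 combinations, with member medians of 0.06 in forebrain, 0.06 in cerebellum, 0.13 in liver and 0.12 in kidney beside all-gene medians within 0.01 of 0.

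The smallest p-values were those of cerebellar Nr1d1, 0.12 ± 0.05 (SE, log2, adjusted p = 0.907), and cerebellar Nr1d2, 0.10 ± 0.04 (adjusted p = 0.907), with edgeR. Kidney Nr1d2 was 0.17 ± 0.08 (adjusted p = 0.373) and liver Nr1d2 0.19 ± 0.09 (adjusted p = 0.184), and without the filter on low counts both passed (adjusted p = 0.0185 and 0.0213). The 95% intervals bound what may have been missed: liver Nr1d1 lay between -0.15 and 0.41, liver Rora between -0.10 and 0.23, forebrain Rorb between -0.27 and 0.35 and forebrain Rora between -0.12 and 0.30. With library sizes alone liver Nr1d1 and Rora became -0.02 and -0.06. The lower leukocyte marker sum in SD liver moves with every liver contrast, and its part in these values was not tested.

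At single times the SD minus CON estimate was above 0 in 55 of 90 member tests. Tested over the 6 times together, edgeR called 0 of 15 combinations, with 5 at an unadjusted p under 0.05, whereas DESeq2 called 4. All-gene shares were 0% in forebrain and cerebellum (2743 and 2036 genes at unadjusted p under 0.05, and 936 and 244 calls by DESeq2), 3.56% in liver and 0.725% in kidney. Single time points gave 90 member tests, of which 2 passed and 18 had an unadjusted p under 0.05. Pooled over times, 0.381% of tests over all genes passed in forebrain, 1.71% in cerebellum, 0.109% in liver and 0.0619% in kidney. The CON and SD pairs of a time did not overlap in 15 of 24 member time points in forebrain, 11 of 24 in cerebellum, 3 of 18 in liver and 14 of 24 in kidney. Over all genes tested this held for 36.9%, 36.8%, 44.6% and 37.4% of time points.

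Forebrain Rora rose in SD at CT20. It was at 520 and 436 CPM in CON and 828 and 717 CPM in SD, a rise of 0.69 ± 0.15 (log2, 1.61-fold; adjusted p = 0.0383, edgeR). At that time 1.85% of all forebrain genes were called higher, and 9 of the 24 single-library omissions removed the call for Rora (CON CT20 and CT24 replicates 1 and 2, SD CT8 and CT24 replicates 1 and 2, and SD CT20 replicate 1; adjusted p = 0.0520 to 0.382). At CT12 it stood the other way, with 797 and 673 CPM in CON and 587 and 478 CPM in SD (-0.45 ± 0.15, adjusted p = 0.799). Groups did not overlap at 5 of 6 times for forebrain Rora, with SD higher at CT4, CT16 and CT20 and lower at CT12 and CT24. Over all forebrain genes tested, 36.9% of time points did not overlap. Summed striatum markers ran from 98.3 to 968 CPM in CON and 87.2 to 1058 CPM in SD forebrain. With the striatum marker score as a covariate, added after seeing the data, the Rora call at CT20 was kept. Marker scores of other regions were not used as covariates, and the part of regional makeup in this call was not tested.

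Cerebellar Nr1d2 rose in SD at CT8, from 214 and 247 CPM in CON to 302 and 299 CPM in SD (0.32 ± 0.09, adjusted p = 0.0371, edgeR). At CT8 0.54% of cerebellar genes were called higher (120 genes, against 2161 called lower), and the control group there contains the library that stood apart. Without that library the difference was 0.29 with an adjusted p of 0.997, and no gene was called at CT8. The call was also lost without any of 12 other libraries (adjusted p = 0.0508 to 0.211) and with a replicate block (adjusted p = 0.195). Cerebellar Nr1d1 at CT8 was 67.6 and 74.7 CPM in CON and 90.4 and 84.6 CPM in SD (0.24 ± 0.08, adjusted p = 0.0777). Cerebellar Nr1d1 groups did not overlap at 5 of 6 times, with SD higher at CT4, CT8, CT20 and CT24 and lower at CT16. Over all cerebellar genes tested, 36.8% of time points did not overlap.

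Forebrain Nr1d1 was 107 and 109 CPM in CON and 143 and 143 CPM in SD at CT24 (0.41 ± 0.10, adjusted p = 0.9995). It was 157 and 157 CPM in CON and 128 and 141 CPM in SD at CT16 (-0.28 ± 0.10, adjusted p = 0.363). In liver, Nr1d1 groups overlapped at all 6 times, whereas 44.6% of time points over all liver genes tested did not overlap. Kidney Nr1d2 was higher in SD without overlap at CT4 (50.6 and 58.3 CPM in CON, 79.8 and 73.4 CPM in SD) and at CT24, near its trough, and neither passed (adjusted p = 0.564 and 0.356). Over all kidney genes tested, 37.4% of time points did not overlap.

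**Figure D4:**
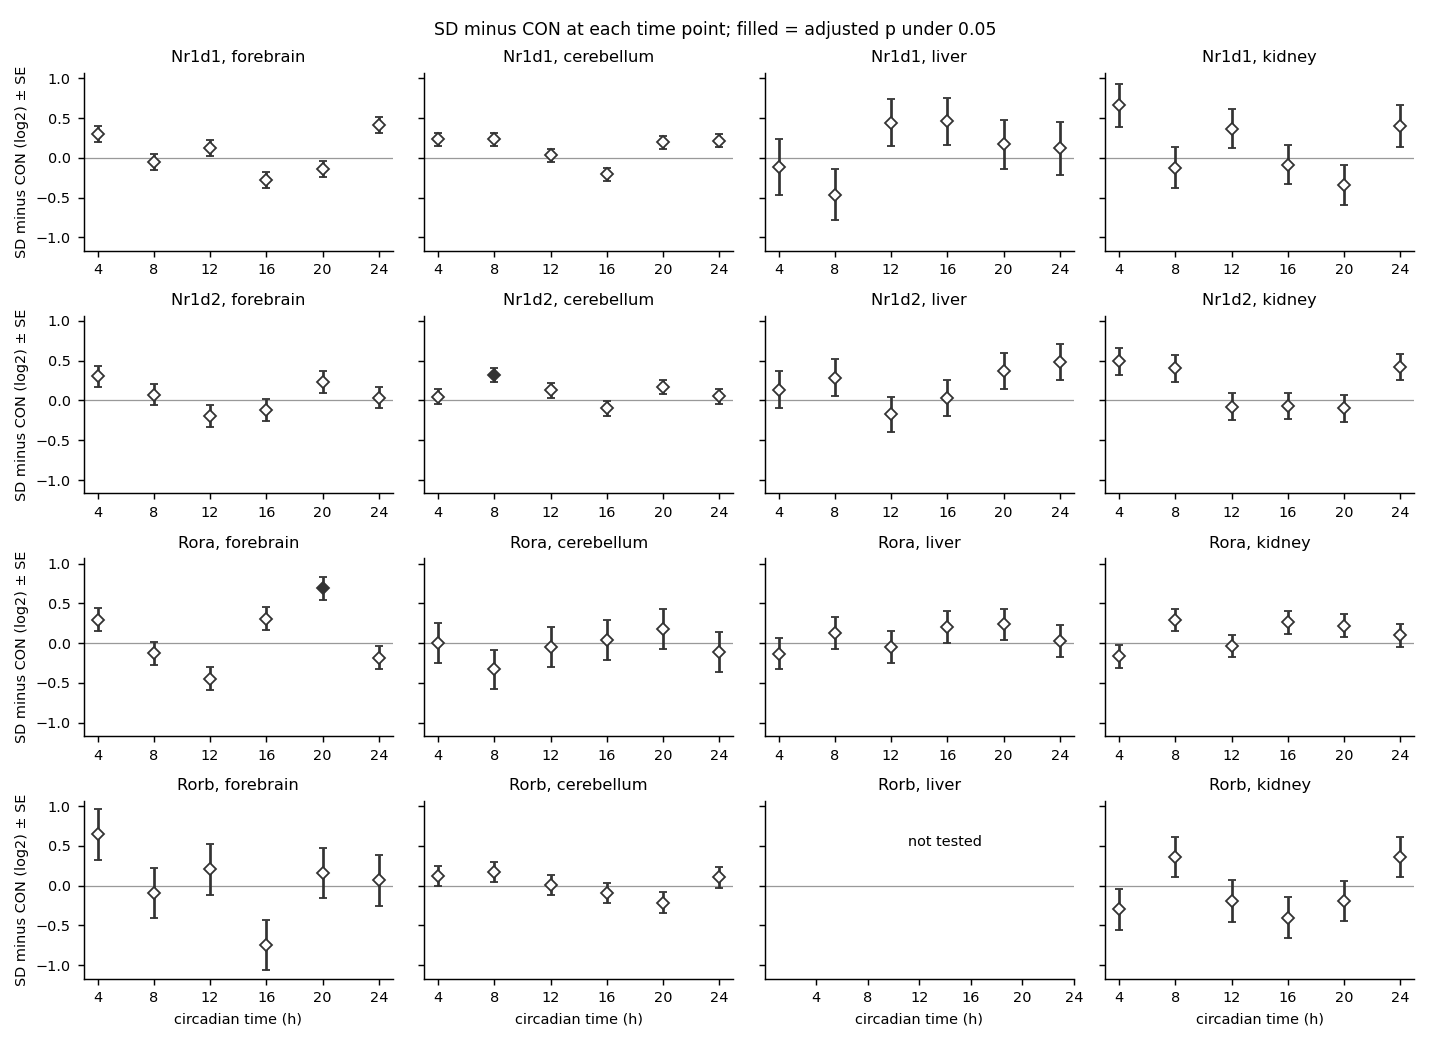
SD minus CON (log2) ± SE at each circadian time in h for each member (rows) and tissue (columns), from 2 libraries per group; filled diamonds have an adjusted p under 0.05. Filled are forebrain Rora at CT20 (0.69) and cerebellar Nr1d2 at CT8 (0.32); Rorb in liver was too low to test.

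The change in rhythm under SD was tested as a difference of cosine and sine terms. No member passed (0 of 15 with edgeR and with DESeq2, 3 at unadjusted p under 0.05), and 0% of all genes passed in forebrain, cerebellum, liver and kidney, where 1390, 2248, 722 and 874 genes had an unadjusted p under 0.05 and DESeq2 called 5, 12, 4 and 0. The unadjusted p-values under 0.05 were those of cerebellar Nr1d1 (adjusted p = 0.454), kidney Nr1d2 (adjusted p = 0.999) and forebrain Nr1d1 (adjusted p = 0.820), each with a lower amplitude in SD. The amplitude difference was -0.13 ± 0.05 in cerebellum for Nr1d1, -0.35 ± 0.10 in kidney for Nr1d2 and -0.22 ± 0.09 in forebrain for Nr1d1. Without the filter on low counts kidney Nr1d2 passed (adjusted p = 0.0295). Liver Nr1d1 went the other way, 0.31 ± 0.24. Fitted peaks of Nr1d1 in SD came 2.22 h later in forebrain, 1.63 h later in cerebellum and 0.24 h later in liver, and 0.48 h earlier in kidney. In forebrain the SD rhythm was not called (adjusted p = 0.596, edgeR), and the SE of its peak was 1.55 h, against 0.63 h in CON. Shifts of the peak alone were not tested. A difference of the SD level change between tissues was tested for 24 member and tissue-pair combinations, where 2.48% of tests over all genes passed, and none passed for the members (edgeR, adjusted p = 0.486 to 1).

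Genes around the receptors were read from lists. None of the 5 RORE targets passed the test of a level change in SD in any tissue, with list medians of 0.01 in forebrain, 0.06 in cerebellum, -0.01 in liver and 0.03 in kidney. Of 9 tested E-box and D-box clock genes, Hlf (0.21, adjusted p = 0.0111) and Tef (0.25, adjusted p = 0.0413) were higher in SD liver, where 9.42% of all genes were called higher, and neither passed with library sizes alone (adjusted p = 0.340 and 0.380). In controls 8 of 9 were rhythmic in liver, 9 in kidney, 7 in cerebellum and 2 in forebrain, and under SD 7, 9, 1 and 1. Of all genes, 11.7%, 4.51%, 0.257% and 1.59% were rhythmic in CON, and 13.8%, 4.74%, 0.018% and 0.039% in SD. None of these clock genes passed the test of a change in rhythm in any tissue. In cerebellum DESeq2, fitted to the 12 libraries of each condition apart, called 173 rhythmic genes in CON and 581 in SD. That is the opposite order to edgeR (57 and 4), which was fitted to all 24 libraries together. Ciart, a repressor of CLOCK and BMAL1, had the largest amplitude of this list in forebrain, liver and kidney controls (3.28-fold, 58.3-fold and 26.4-fold).

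Of 12 metabolic targets of the receptors tested in liver, 4 were higher and 1 lower in SD and 7 did not pass, beside 9.42% higher and 8.8% lower among all liver genes. The list median was 0.36 beside 0.01 over all genes. With library sizes alone 2 were higher and 1 lower. Apoc3, a lipoprotein component, was higher by 0.31 ± 0.07 (adjusted p = 0.00353), Cyp8b1, the sterol 12α-hydroxylase of bile acid synthesis, by 0.67 ± 0.18 (adjusted p = 0.0121) and Avpr1a, a vasopressin receptor, by 0.26 ± 0.08 (adjusted p = 0.0237, and 0.281 with library sizes alone). In control liver 4 of them were rhythmic and in SD liver 8, beside 11.7% and 13.8% of all liver genes. None of the 12 passed the test of a change in rhythm under SD. Among those rhythmic in control liver were the fatty acid elongase gene Elovl3 (20.6-fold, peak at 6.54 h) and Insig2, a brake on SREBP processing (4.04-fold, 6.46 h). No metabolic target passed the level test in kidney (0 of 10) or in the brain tissues. In kidney 2 of the 10 were rhythmic in CON and 2 in SD, beside 4.51% and 4.74% of all kidney genes.

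Among 9 genes of heme metabolism, which supplies the REV-ERB ligand, liver Cpox (0.34, adjusted p = 0.00266) and Urod (0.20, adjusted p = 0.00555) were among 3 higher in SD, and the heme oxygenase gene Hmox1 was lower (-0.35, adjusted p = 0.00709), beside 9.42% and 8.8% of all liver genes. With library sizes alone 1 was higher (Cpox) and 1 lower (Hmox1). Alas1, the first enzyme of the pathway, was rhythmic in control liver (6.26-fold, peak at 20.4 h). None of the tested corepressor or coactivator genes passed the level test in any tissue, although 2 coactivators were lower in SD liver with library sizes alone. In control kidney the corepressor gene Tbl1xr1 was rhythmic (1.26-fold, adjusted p = 0.000370, edgeR), beside 4.51% of all kidney genes. In liver 2 of 6 coactivators, Ppargc1b (2.58-fold) and Crebbp (1.45-fold), were rhythmic in controls and 0 in SD. Of all liver genes, 11.7% and 13.8% were. No coactivator passed the test of a change in rhythm under SD in liver. Of 6 genes that act on REV-ERB stability, the kinase gene Cdk1 was lower in SD liver (-0.96, adjusted p = 0.00142) and kidney (-0.45, adjusted p = 0.0481), and the ubiquitin ligase gene Huwe1 was higher in liver (0.12, adjusted p = 0.0388; -0.0193 with library sizes alone). Kidney Cdk1 did not pass with library sizes alone or RLE size factors (adjusted p = 0.0686 and 0.0556). No brain target or layer 4 gene passed in the brain tissues. In liver Calb1 (0.36, adjusted p = 0.0276) and Scnn1a (0.30, adjusted p = 0.00284) were higher and Fabp7 was lower (-0.65, adjusted p = 0.0330), and Fabp7 was also lower in kidney (-0.49, adjusted p = 0.0445). With library sizes alone liver Calb1 and Scnn1a and kidney Fabp7 did not pass (adjusted p = 0.135, 0.123 and 0.0747). Of the remaining list genes, Dbp (at most 0.125 CPM in any library) and Hdac3 (0 in all libraries) were near 0 in all 4 tissues although they are widely expressed, and could not be tested; the cause was not tested.

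The genes whose time courses were most like those of the members were ranked by Pearson's r over the 48 group means, after each tissue's mean was subtracted, among 12210 genes. These points share tissues and libraries, so r is a description only. Nr1d1 was most like Jade1 (r = 0.88), Ulk1, Tns2, Pcbp4 and Hmga1 (0.85 each), and least like Lonrf3 (-0.93), Cry1 (-0.91) and Hyou1 (-0.91). Nr1d2 was most like Bcas3 (0.90), Fnip2 (0.88), Ldb1 (0.87), Ddx46 (0.87) and Ciart (0.86), and the lowest r of all candidates was that of its target Arntl (-0.92), followed by Chic1 (-0.91). Rora was most like Eml5 (0.80), Sclt1, Tent2, Gm38372 and Gm37494 (0.78 to 0.79), and least like Nt5c (-0.73), Ywhae (-0.73) and Arf1 (-0.70). For Rorb the highest r was lower, with Lmtk2 (0.57), Exph5 (0.53), Fgfr1op2 (0.51), Hhip and Enpp6 (0.49 each), and the lowest were Slc47a1 (-0.48), Hemk1 (-0.48) and Prr13 (-0.47). Without the subtraction, over 20770 genes, the 3 most like were Hmga1, Bcas3 and Otud5 for Nr1d1 (0.87 to 0.88), Per3, Kdsr and Bcas3 for Nr1d2 (0.87 to 0.88), Tmem62, Gm7854 and Klhl33 for Rora (0.99 each), and Pja2, Zdbf2 and Gfra4 for Rorb (highest 0.997).

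The ROR genes are regional in the brain, so their levels were set against marker genes of brain regions over the 24 libraries of a tissue, in 9 relations. Forebrain Rorb rose with cortex and hippocampus markers (Pearson r = 0.55, permutation p = 0.0022, adjusted p = 0.0099), less so by rank (Spearman rho = 0.39, permutation p = 0.0621, adjusted p = 0.193). Without the 2 libraries farthest from the median marker score, CON CT4 replicate 2 and CON CT8 replicate 1, r was 0.27, so the relation rests on those libraries. It was 0.61 within CON and 0.34 within SD. Cerebellar Rorb rose with thalamus markers (r = 0.64, permutation p = 0.00068, adjusted p = 0.00612; rho = 0.50, permutation p = 0.0133, adjusted p = 0.120), and r was 0.45 (permutation p = 0.0347) without CON CT16 replicate 2 and SD CT4 replicate 2, 0.73 within CON and 0.59 within SD. Cerebellar Rora had r = -0.48 with Purkinje cell markers (permutation p = 0.0190, adjusted p = 0.0569). Forebrain Rora had r = -0.20 with striatum, 0.33 with thalamus and -0.38 with cortex and hippocampus markers, none of which passed.

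**Figure D5:**
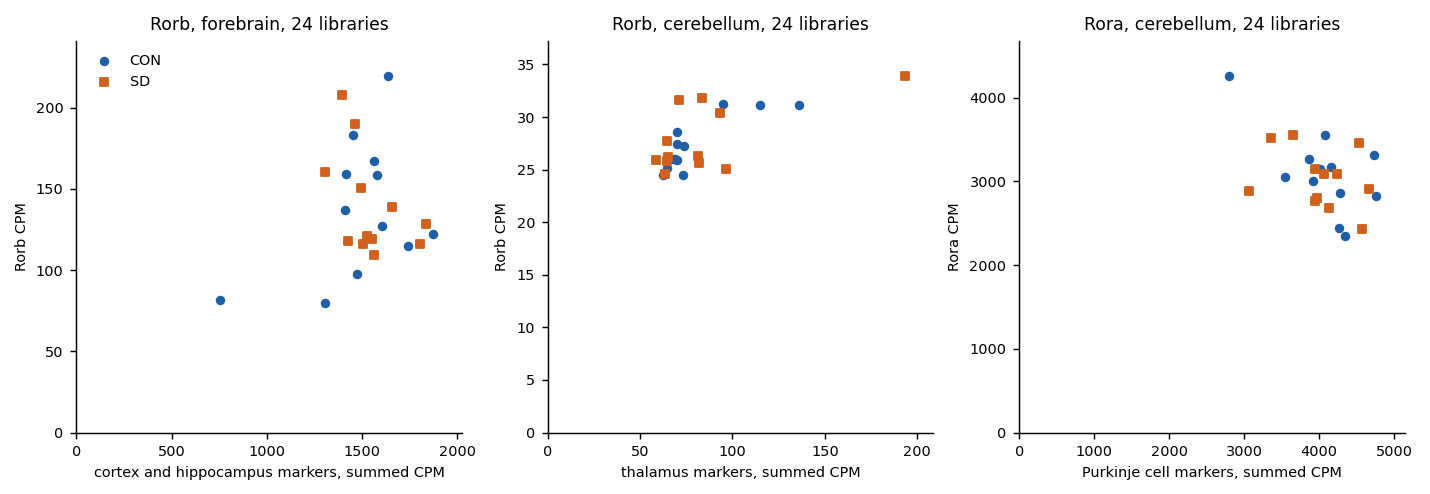
CPM of Rorb or Rora against the summed CPM of region or cell markers in the 24 libraries of forebrain (left) and cerebellum (centre and right), circles for CON and squares for SD. Rorb had r = 0.55 and 0.64 with the markers, computed on mean log2 marker scores, which in forebrain was 0.27 without the 2 libraries farthest from the median, and the highest forebrain Rorb value is 219 CPM.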

How the data were processed

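Total RNA depleted of rRNA was sequenced as stranded, paired-end libraries. The authors trimmed reads with Trim Galore, aligned them to GRCm38 with HISAT2, kept high-quality alignments with SAMtools and deposited raw counts per gene from featureCounts, counted by strand. CPM is a count divided by its library total. Each of the 4 tissues was fitted with edgeR 4.0.16 (R 4.3.3): TMM factors, filterByExpr, quasi-likelihood tests and Benjamini-Hochberg adjustment over all genes at 0.05, with a 24 h cosine and sine term for rhythm. JTK was run on CPM with 6 phases (smallest possible p 2.89e-05), and DESeq2 1.42.0 was an alternative, as were other scalings, no filter, a replicate block and leaving out each library. For rhythm within a condition, DESeq2 was fitted to the 12 libraries of that condition and edgeR to all 24 of the tissue. The kidney count fits with edgeR and the JTK procedure were tested on simulated data. For kidney changes of 0.5 (log2), 48.5% were recovered in level, 35.5% in control rhythm and 1.5% in change of rhythm. For changes of 1 (log2) at 1 time, the joint test over 6 times recovered 0% and the single-time test 14.5%. The fits between tissues and with DESeq2 were not simulated. The members always, list genes by smallest p or largest amplitude (up to 3 per list and tissue), overlapping genes and genes of highest and lowest likeness (log2(CPM + 0.5)) were named. Some genes these rules would name are not reported here. Members and lists were chosen with earlier results of these data known. The study's reporting summary calls the 2 samples of a group biological repeats, and the labels name no animals. Same-numbered CON and SD libraries deviated together (r over 0.1) in 13 of 24 pairs, with r from -0.43 to 0.51 and a median of 0.12. These values do not settle whether numbers pair samples, and numbers were not taken to do so. Same-numbered libraries of 2 tissues deviated together in 15 of 72 pairs, with the highest r, 0.46, between liver and kidney in SD at CT16. Whether they came from the same animals was not tested. The main tests between tissues treated all libraries as independent.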

Additional observations from a re-analysis of the deposited data

Results flagged for a closer look

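The REV-ERB rhythms differed between tissues by the test of the difference itself (edgeR quasi-likelihood, 48 control libraries), and values are distances between the fitted cosine and sine coefficients on the log2 scale. For Nr1d1 the distance was 1.96 between liver and forebrain, 2.03 between liver and cerebellum, 1.199 between kidney and forebrain, 1.28 between kidney and cerebellum and 0.78 between kidney and liver. For Nr1d2 it was 1.49 between liver and forebrain, 1.54 between liver and cerebellum, 1.02 between kidney and forebrain and 1.096 between kidney and cerebellum. In each organ and brain pair the larger amplitude was that of the organ, and that of liver Nr1d1 exceeded that of kidney Nr1d1.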

How the results depend on the processing

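The rhythm calls of Nr1d1 and Nr1d2 in liver and kidney kept their direction and side of the threshold under every scaling, filter, tool, block and single-library omission of the cosine fit. Of the counts of members called, the 6 times together gave 2 in forebrain, 1 in cerebellum and 1 in kidney with DESeq2, and 1 in forebrain, 2 in liver and 3 in kidney without the filter on low counts, against 0. DESeq2 gave 2 rhythmic members in forebrain CON and 2 in cerebellum SD, against 1 each, and library sizes alone gave 0 in cerebellum SD. Without the filter 1 member passed in level in liver and 1 in kidney, 1 in the rhythm difference in kidney, and 1 single time in liver and 7 in kidney, against 0. JTK with TMM-scaled CPM called 1 in kidney CON (against 0) and 0 in kidney SD (against 1), and without the filter 0 in kidney SD.

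Numbers were not taken to pair the samples. A replicate block left 0 of the single time calls in cerebellum (against 1). It brought the Nr1d2 rhythm difference between kidney and liver to an adjusted p of 0.0230 (edgeR), and changed no other member call. Leaving out each library in turn moved the counts of members called between 0 and 1 for forebrain CON rhythm, forebrain single times and cerebellum times together, and between 0 and 2 for cerebellum SD rhythm, cerebellum single times and liver SD by JTK, and to 0 for kidney SD by JTK. With library sizes alone the SD change became -0.0159 for liver Nr1d1 and -0.0619 for liver Rora, and kidney minus liver became 0.48 for Nr1d2 and 0.13 for Rora. Single omissions turned the sign of SD level estimates that did not pass, with ranges of -0.0400 to 0.124 for forebrain Rorb, -0.0863 to 0.0381 for cerebellar Rora, -0.0127 to 0.0418 for cerebellar Rorb and -0.119 to 0.00437 for kidney Rorb. A covariate for striatum markers, added after seeing the data, changed no member call. The causes of these shifts were not tested.

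Counts over all genes moved as well. Without the filter, each single time in kidney had 487 to 1044 of 36128 genes called, against 1 to 65 of 21528 with it. At CT20 in forebrain 526 genes were called, against 186 with library sizes alone and 1118 without the filter. At CT8 in cerebellum it was 2281, against 1 with the replicate block, 4235 without the filter and 0 without CON CT8 replicate 1. DESeq2 called 1446 rhythmic genes in forebrain CON (against 367), 313 in forebrain SD (9) and 581 in cerebellum SD (4), and without the filter cerebellum CON had 1182 (57). Over the 6 times together, no filter gave 3552 genes in cerebellum (0), 2873 in liver (702) and 2705 in kidney (156). In kidney the level test called 341 to 1043 genes (495). With 2 libraries per group, single times bound a change only loosely.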
